A study of Mus musculus with 4 samples.

Results

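Cd209a is a C-type lectin receptor that marks a branch of the type 2 dendritic cells (DCs) of the mouse, and cells that carried it were examined in the injured spinal cord at 14 days post injury (dpi). A cell was taken when it held at least 600 genes, no more than 10% mitochondrial UMIs (unique molecular identifiers, each standing for 1 captured RNA molecule), at least 2 Cd209a UMIs and a UMI of at least 2 of 7 further genes (Flt3, Zbtb46, Clec10a, Mgl2, Itgax, Clec4b1 and H2-DMb2). It also had to hold no UMI of Xcr1, Ccr7, Cd3e or Cd79a, which mark conventional DC1, migratory DCs, T cells and B cells. This gave 225 cells of the 11631 barcodes at 14 dpi, out of 31660 in the series. They are called the Cd209a cells, and those with at least 1 Ly6c2 UMI are set beside those with none, because Ly6C is carried by classical monocytes and by some of their progeny.

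CD45+ cells, that is cells of blood origin and microglia, were sorted from the spinal cord of 3-month-old C57BL/6 mice of both sexes and run on the 10x Genomics 3' platform. The injury was a contusion at T10, and the sham animals had the laminectomy without it. There was 1 library per condition: sham with a standard dissociation, sham with actinomycin D (ActD, a blocker of transcription) during dissociation, 3 dpi with ActD and 14 dpi with ActD. The mice behind a library were pooled, and no barcode is assigned to an animal. With 1 library per condition and no animal labels there is no test between conditions or between cell classes, so values are given with 95% intervals that cover counting error only. The library at 14 dpi held 129935880 UMIs, with a median of 9483 UMIs in the 10879 cells that passed the filter.

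Conventional type 2 DCs arise from a bone marrow precursor under the growth factor receptor Flt3, take up antigen and present it on MHC class II to CD4+ T cells. Classical monocytes enter inflamed tissue through Ccr2 and can acquire MHC class II and DC markers there, which is why surface or transcript markers alone separate the lineages poorly. Plasmacytoid DCs are a further lineage that depends on the transcription factor Tcf4 and is known for making type I interferon.

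The Cd209a cells made up 2.07% of the filtered cells at 14 dpi (exact Clopper-Pearson interval 1.81 to 2.35%). At 3 dpi the same rule took 63 cells, which was 0.661% of the 9528 filtered cells (0.508 to 0.845%). The standard sham held 33 cells, or 0.575% (0.396 to 0.807%), and the ActD sham held 5 cells, or 0.227% (0.0737 to 0.529%). The interval at 14 dpi lay above those of the other 3 libraries, which differ from it in condition, library, for the standard sham in dissociation, and for the standard sham and 3 dpi in the software version in the matrix headers (3.0.1 against 3.1.0), and these cannot be told apart. Median UMIs of all filtered cells were 7814 in the standard sham, 9789 in the ActD sham and 9491 at 3 dpi. The libraries shared between 3 and 36 barcodes pairwise, and 4 of the 225 member barcodes also occurred in another library, although no barcode was a Cd209a cell in more than 1.

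**Figure D1:**
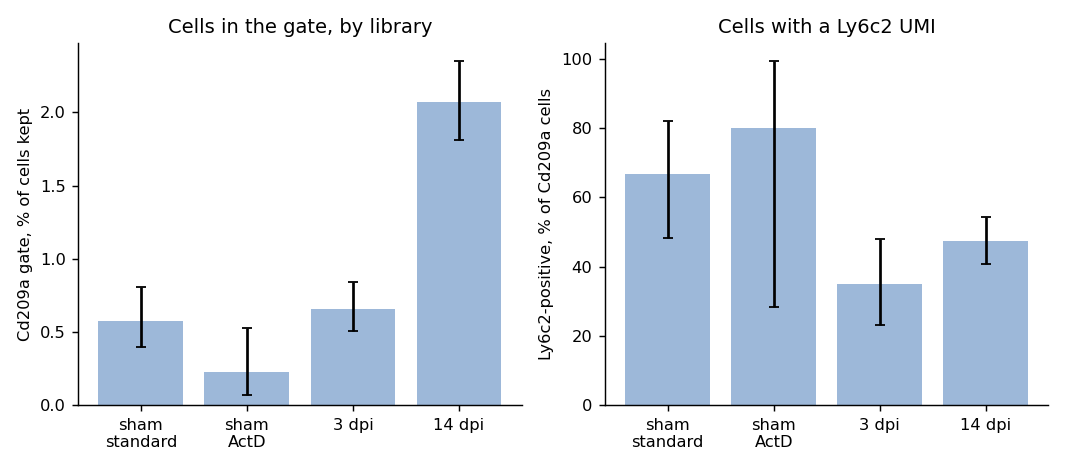
Bars give the percent of filtered cells that were Cd209a cells (left panel) and the percent of Cd209a cells with a Ly6c2 UMI (right panel) in each library, 1 library per condition, and whiskers are exact 95% intervals for counting error. The share of Cd209a cells was 2.07% at 14 dpi and between 0.227% and 0.661% in the other libraries.

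Cd209a itself lies on the minus strand of chromosome 8 (mm10, chr8:3743397-3748984) and Ly6c2 on the minus strand of chromosome 15 (chr15:75108158-75111970). The Cd209a cells held from 2 to 41 Cd209a UMIs with a median of 8. Cells that should lack Cd209a gave the background, whose source (free RNA or barcodes with more than 1 cell) was not tested. When the Cd209a criterion was ignored, 33 of 4495 microglia (0.734%, median 10985 UMIs) and 5 of 504 B cells (0.992%, median 3761 UMIs) held any Cd209a UMI, and with all cells thinned to 2000 UMIs the shares were 0.271% and 0.628%. The shares were higher in 2 kinds of cell used for comparison below, with 26 of 503 classical monocytes (5.17%) and 4 of 52 conventional DC1 (7.69%). Of these, 20 monocytes and 2 DC1 held at least 2 Cd209a UMIs. Just inside the threshold stood 15 cells with 2 Cd209a UMIs, of which 53.3% held Ly6c2. Just outside stood 36 cells with 1 Cd209a UMI that met the other criteria, of which 61.1% held Ly6c2, and their MHC class II genes took a median of 1.27% of UMIs against 3.26% just inside.

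Of the genes used for selection, Flt3 and Itgax were found in 72.9% of the Cd209a cells each, Clec10a in 68.4%, H2-DMb2 in 54.2%, Mgl2 in 27.6%, Zbtb46 in 23.1% and Clec4b1 in 22.2%. The cells were chosen by the UMIs of Cd209a and of these genes, so these shares are a description. Flt3 was found in 83.2% of the Ly6c2-positive and 63.6% of the Ly6c2-negative cells, whereas Mgl2, a galactose-type lectin, was found in 12.1% and 41.5%, and H2-DMb2, a chaperone of peptide loading, in 37.4% and 69.5%. The other 4 were nearer, at 69.2% and 76.3% for Itgax, 64.5% and 72.0% for Clec10a, 21.5% and 24.6% for Zbtb46 and 25.2% and 19.5% for Clec4b1.

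Ly6c2 was found in 107 of the 225 Cd209a cells, or 47.6% (40.9 to 54.3%). Of these, 28 held exactly 1 UMI and 79 held 2 or more. A Ly6c2 UMI was also found in 15.8% of 4462 microglia (median 10980 UMIs) and 11.6% of 499 B cells, which should lack it, and in most of these microglia it was exactly 1 (13.3% of microglia). The Cd209a cells had a median of 10574 UMIs. After thinning to 2000 UMIs the share was 27.1% of the Cd209a cells (21.4 to 33.4%), 3.63% of microglia and 6.34% of B cells. A Ly6c2 UMI was not particular to monocytes here. Unthinned, it was found in 33.3% of conventional DC1, 20.3% of Ccr7 DCs, 54.7% of T cells and 51.5% of neutrophils. After the same thinning these shares were 4.26%, 6.78%, 46.4% and 34.2%. Cells with exactly 1 Ly6c2 UMI (12.4% of the Cd209a cells, 13.3% of microglia) were thus no more frequent than in microglia. They are kept apart where a comparison names cells with 2 or more, and are counted as Ly6c2-positive elsewhere. The neighbouring gene Ly6c1, a close copy, had 1 UMI in all 225 cells.

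The same rule found Ly6c2 in 22 of the 33 cells of the standard sham (66.7%, 48.2 to 82%), 4 of the 5 of the ActD sham (80.0%, 28.4 to 99.5%) and 22 of the 63 at 3 dpi (34.9%, 23.3 to 48.0%). The intervals at 3 and 14 dpi overlapped. With at least 2 Ly6c2 UMIs needed, the share was 17.5% at 3 dpi and 35.1% at 14 dpi. It was then 60.6% in the standard sham and 60.0% in the ActD sham, and these differences were not tested. Median UMIs of the Cd209a cells were 11945, 17730 and 8889 in these libraries.

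Checked against markers of other cells, the DC2-like label was not borne out for all of the 225 cells. Among them were 51 that also carried genes of another cell type in bulk and 16 that carried plasmacytoid DC genes. The limits for these kinds were chosen after the values had been seen. In 47 cells at least 20 UMIs came from 10 microglia genes, with 22 in the lowest of them and 16 in the highest of the rest, and these 47 cells held 89.7% of all 8123 UMIs of those genes. In 7 cells (3 of them also among the 47) the neutrophil granule genes Camp, Ngp and Ltf or the S100 genes were in bulk, and these 7 held 94.9% of the 6408 granule UMIs.

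The microglia-gene cells were spread over both sides of the Ly6c2 contrast, with 24 at 0 Ly6c2 UMIs, 6 at 1 and 17 at 2 or more. The neutrophil-gene cells were not: 6 of the 7 held 2 or more. Mixed cells had a median of 19695 UMIs and the remaining cells 10002. Scrublet scores barcodes for likeness to simulated doublets. The 947 cells with the highest scores (8.70% of 10879) were taken, a number set by an assumed rate of 0.8% per 1000 cells. They held 28 of the 51 mixed cells (54.9%), none of the 16 with plasmacytoid genes and 3 of the 158 remaining cells (1.90%).

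The 16 cells with plasmacytoid genes were chosen by UMIs of such genes, Siglech and the gut-homing chemokine receptor Ccr9 among them. Siglech was found in 15 of the 16 (median 10 UMIs) and Ccr9 in 14, and these shares follow in part from the selection. Tcf4 was found in all 16. All 16 were Ly6c2-positive, 12 with 2 or more UMIs. MHC class II genes took a median of 0.13% of their UMIs, from 0 to 2.34%. Zbtb46, a transcription factor of conventional DCs, was found in 1 of them and Flt3 in 15. Besides the genes that chose them, they held Irf8 at 2456 CPM (counts per 1000000 UMIs). Leaving out the mixed cells and these 16 left 158 cells, of which 94 had no Ly6c2 UMI, 18 had 1 and 46 had 2 or more. The label was not uniform in the 158 either: H2-Aa was found in 38 of the 46, and 12 of the 46 carried the monocyte and macrophage gene F13a1, as described below.

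**Figure D2:**
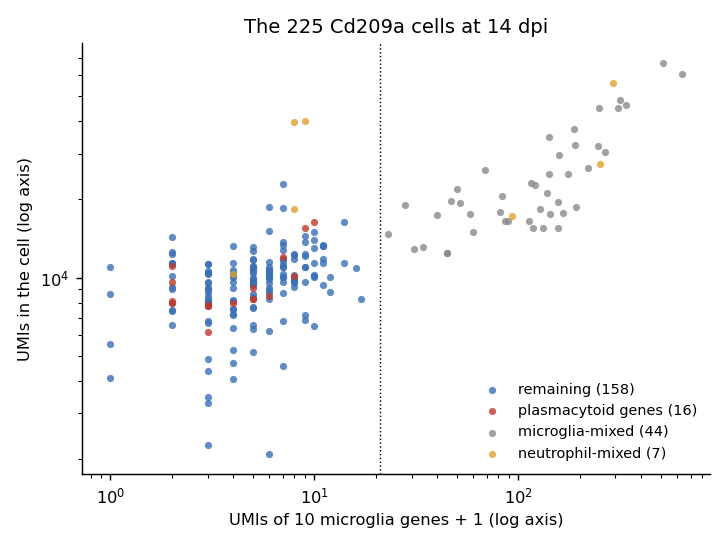
Each point is 1 of the 225 Cd209a cells at 14 dpi, with UMIs of 10 microglia genes plus 1 (horizontal log axis) against all UMIs of the cell (vertical log axis), coloured by kind, and the dotted line marks the limit of 20 microglia UMIs. The 47 cells at or right of the line hold 89.7% of the microglia UMIs, and the 3 cells with both microglia and neutrophil genes are drawn under 1 kind only.

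Over all 225 cells, summed as the rule takes them, the Ly6c2-positive cells carried more neutrophil granule, monocyte, interferon response and proliferation transcripts and less MHC class II than the Ly6c2-negative cells. Of 6037 genes with at least 50 UMIs, 177 (2.93%) were at least 2-fold higher and 64 (1.06%) at least 2-fold lower, with a median log2 ratio of 0.09. The 10 highest were Ngp, Camp, Chil3, Ltf, Hp, Wfdc21, Ly6d, S100a8, S100a9 and Lcn2, from 5.44 down to 3.31 on the log2 scale. Apart from Ly6d, a lymphoid and plasmacytoid gene, these are genes of neutrophils, their precursors or monocytes. Camp, an antimicrobial peptide of granules, stood at 1902 against 57.9 CPM although 48.6% and 46.6% of cells held it, and the 6 Ly6c2-positive neutrophil-gene cells held 97.4% of the 6241 Camp, Ngp and Ltf UMIs on that side. The 10 lowest were Ms4a7, Kit, Epcam, Siglece, H2-Oa, Gpnmb, Ssx2ip, Klrb1b, H2-Ob and Dapk1, from -2.24 up to -1.44.

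Gene lists are described by members with at least 20 UMIs, for which 4.37% of all 8468 genes were at least 2-fold higher and 1.83% at least 2-fold lower in Ly6c2-positive cells. Of 11 MHC class II genes 6 were 2-fold lower and none higher (median -1.04). Of 20 interferon response genes 8 were 2-fold higher and none lower (median 0.92), and of 17 classical monocyte genes 8 and none (0.77). For neutrophil genes it was 10 of 11 (median 3.34), for proliferation genes 9 of 19 (0.87) and for plasmacytoid genes 8 of 11 (1.55, or 3.00 without the mixed cells and 1.10 without the mixed and plasmacytoid-gene cells).

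Leaving out the mixed and plasmacytoid-gene cells took some of these differences away and left others. Among the 158 remaining cells (64 with Ly6c2, 94 without), the neutrophil median was -0.01 over 7 measured genes and the proliferation median 0.11 over 15. The neutrophil change follows from the exclusion, which used Camp, Ngp, Ltf, S100a8 and S100a9, all genes of that list. MHC class II stood at -0.85 with 5 of 11 genes 2-fold lower, interferon response at 1.26 with 13 of 19 higher and monocyte genes at 0.88 with 7 of 16 higher. Of all genes in that contrast 5.47% were 2-fold higher and 2.74% lower. Cells with exactly 1 Ly6c2 UMI stood close to those with none: the median was -0.21 for MHC class II, 0.40 for interferon response and 0.13 for monocyte genes, and H2-Aa differed by -0.37 and Plac8 by 0.31. The comparison below therefore sets the 46 remaining cells with 2 or more Ly6c2 UMIs against the 94 with none, a choice made after these values were known. In it, 7.75% of 6334 genes with at least 20 UMIs were 2-fold higher, 3.65% were 2-fold lower and the median was 0.16.

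MHC class II transcripts were lower in the cells with 2 or more Ly6c2 UMIs, and unequally so between genes. H2-Aa, H2-Ab1 and H2-Eb1 encode the chains of the class II molecules and Cd74 the invariant chain that guides them. Together these 4 genes took from 0.31 to 9.51% of UMIs in the Ly6c2-negative cells, with a median of 6.32%, and from 0 to 6.54% in the cells with 2 or more Ly6c2 UMIs, with a median of 1.80%. Cells with 1 Ly6c2 UMI had a median of 5.81%. The ranges overlapped, so class II content alone did not part the cells. Unmixed monocytes of the same library had a median of 0.03% and unmixed conventional DC1 4.43%.

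H2-Aa (chr17:34282744-34287823, minus strand) was counted at 6 to 246 UMIs per Ly6c2-negative cell with a median of 116. In the cells with 2 or more Ly6c2 UMIs it ran from 0 to 147 with a median of 32.5. The summed level was 4251 against 11683 CPM, a log2 ratio of -1.46 (-1.53 to -1.39). H2-Ab1 stood at -1.53 (-1.60 to -1.46), H2-Eb1 at -1.86 (-1.95 to -1.77) and Cd74 at -1.18 (-1.22 to -1.13). The DO chains H2-Oa and H2-Ob, which restrain peptide loading, differed further: H2-Oa was found in 13% against 83.0% of cells with a log2 ratio of -3.28 (-4.11 to -2.62), and H2-Ob stood at -3.22 (-4.81 to -2.17).

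Other genes of the pathway were closer together. The DM chains, which load peptide, stood at -0.55 (-0.73 to -0.37) for H2-DMa and 0.01 (-0.15 to 0.17) for H2-DMb1. Ciita, the master regulator of class II transcription, stood at -0.68 (-1.02 to -0.37). Ctss, a protease that trims the invariant chain, stood at -0.28 (-0.40 to -0.17) and Lgmn, another endosomal protease, at 0.26 (-0.24 to 0.73). The class II list as a whole had a median of -1.18, with 6 of its 11 measured genes 2-fold lower and none higher.

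**Figure D3:**
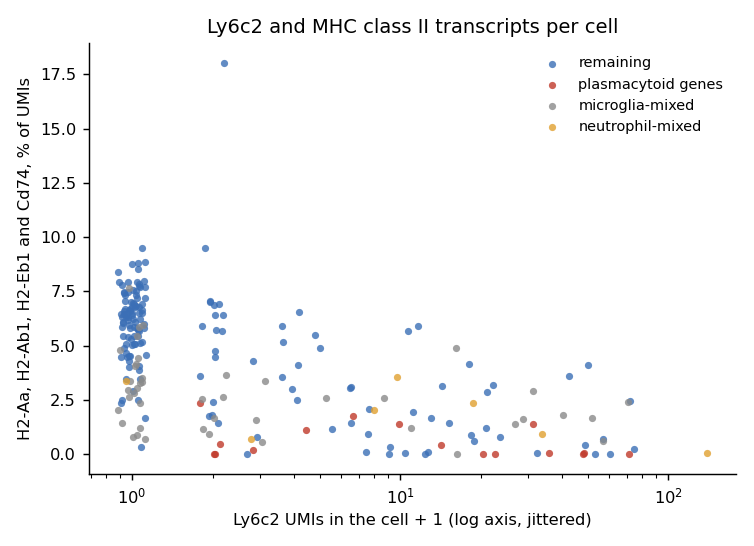
Each point is 1 Cd209a cell at 14 dpi, with Ly6c2 UMIs plus 1 (horizontal log axis, jittered) against the percent of its UMIs in H2-Aa, H2-Ab1, H2-Eb1 and Cd74 (vertical axis), coloured by kind. Among the remaining cells the median was 6.32% at 0 Ly6c2 UMIs, 5.81% at 1 and 1.80% at 2 or more, with overlapping ranges.

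The promoters of some class II genes are shown because these genes differed to unequal degrees, and some, such as H2-DMb1 at 0.01, hardly differed. Class II promoters carry the X box and the Y box, the latter an inverted CCAAT bound by NF-Y. The letters CTGATTGG, searched on both strands from 250 bases before to 50 after the start, were found in 4.10% of 32851 RefSeq promoters (GRCm38.p6) and in 4 of the 10 class II list genes with an entry (H2-Aa, H2-Eb1, H2-Eb2 and H2-Oa). The shorter GATTGG, contained in the longer motif, was found in 16.1% of promoters and in 7 of the 10, adding H2-DMa, H2-DMb1 and H2-Ob. In the lines that follow, capitals mark the longer motif in H2-Aa (chr17:34287855-34287924, minus strand), H2-Eb1 (chr17:34305755-34305824, plus strand) and H2-Oa (chr17:34092283-34092352, plus strand), and the shorter one in H2-DMb1 (chr17:34153077-34153146, plus strand), each read 5' to 3' along the gene.
H2-Aa: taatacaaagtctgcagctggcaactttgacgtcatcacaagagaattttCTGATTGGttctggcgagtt
H2-Eb1: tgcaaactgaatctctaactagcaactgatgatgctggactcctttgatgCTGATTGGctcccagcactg
H2-Oa: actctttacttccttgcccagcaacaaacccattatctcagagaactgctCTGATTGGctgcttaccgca
H2-DMb1: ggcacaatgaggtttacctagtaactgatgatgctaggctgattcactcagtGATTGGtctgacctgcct
The motif began 51, 62, 46 and 62 bases before the start of these genes. H2-Aa, H2-Eb1 and H2-Oa, with the longer motif, stood at -1.46, -1.86 and -3.28 in the comparison above and H2-DMb1 at 0.01, yet H2-Ob with the shorter motif alone stood at -3.22. A match is a description of the letters and not a binding site.

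Interferon response genes were higher, with 15 of 19 measured genes at least 2-fold higher in the cells with 2 or more Ly6c2 UMIs and none lower (median 1.40). Bst2, an antiviral membrane protein also known as a plasmacytoid marker, ran from 0 to 17 UMIs with a median of 2 at no Ly6c2 and from 0 to 41 with a median of 12.5 at 2 or more, a log2 ratio of 2.10 (1.91 to 2.30). Irf7, the transcription factor that amplifies type I interferon, had medians of 0 and 4 UMIs and a log2 ratio of 2.25 (1.88 to 2.64), with highest values of 15 and 20. Both ranges overlapped. Ifi27l2a stood at 2.18 (2.04 to 2.31), the DNA sensor family member Ifi204 at 2.28 (1.83 to 2.75), the ubiquitin-like Isg15 at 1.54 (1.28 to 1.81) and the antiviral enzyme Rsad2 at 2.05 (1.27 to 2.92).

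Promoters of this list are shown with a pair of GAAA copies 2 bases apart, a form of the interferon-stimulated response element, in capitals. Searched on both strands, this pair was found in 3.44% of the promoters and in 7 of the 14 interferon list genes with an entry (Bst2, Ifit1, Ifit3, Ifitm3, Isg15, Phf11b and Rsad2), and in 1 of the 10 class II genes (Ctss). Isg15 (chr4:156200855-156200916, minus strand) held 3 overlapping matches, Bst2 (chr8:71537567-71537622, minus strand) 2 overlapping matches and Rsad2 (chr12:26456543-26456592, minus strand) 1 match in the reverse direction.
Isg15: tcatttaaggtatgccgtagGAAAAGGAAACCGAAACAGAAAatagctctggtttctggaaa
Bst2: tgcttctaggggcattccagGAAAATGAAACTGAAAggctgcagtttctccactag
Rsad2: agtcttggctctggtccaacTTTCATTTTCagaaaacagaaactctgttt
The window of Irf7, which stood at 2.25, held no such pair.

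The interferon difference was read again within cells called female and male from their Xist and Y-linked UMIs. Of the 225 cells 64 were called male, 100 female and 61 neither. Among the remaining cells with 2 or more Ly6c2 UMIs 9 were male and 31 female, or 22.5% male (10.8 to 38.5%), against 31 and 39, or 44.3% male, at no Ly6c2. Within female cells the interferon list had a median of 1.35, with 14 of 19 genes 2-fold higher and none lower, where 9.1% and 3.96% of all genes were. Within male cells the median was -0.25, with 2 of 13 higher and 4 lower, where 7.36% and 7.53% were. The male values rest on 9 cells, and the list median counts every gene alike: by summed list UMIs per cell, given next, the male median was higher at 2 or more Ly6c2 UMIs than at none, with the range of the former inside that of the latter.

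Per cell, interferon list UMIs ran from 96.5 to 311 per 10000 in the 31 female cells with 2 or more Ly6c2 UMIs, with a median of 187.9, and from 35.1 to 97.1 in the 9 male cells, with a median of 64.2. All but 1 of the 31 female cells stood above the highest male cell. At no Ly6c2 the medians were 60.1 in female cells (17.9 to 190.3) and 45.2 in male cells (4.72 to 175.6), with broad overlap. Female cells were also higher in unmixed monocytes (medians 244.7 and 72.0 per 10000), microglia (37.1 and 8.53), unmixed B cells (77.7 and 5.48) and unmixed conventional DC1 (36.0 and 17.9), but not in Ccr7 DCs (16.5 and 16.3). Sex and animal cannot be told apart in the pooled library. Irf7 stood at 1.89 in female and -0.54 in male cells and Isg15 at 1.57 and -1.09, the male values with 4 and 5 UMIs in the 9 cells with Ly6c2 and intervals that span 0 (-2.67 to 0.90 and -2.91 to 0.14). Bst2 was higher in male cells too, at 1.09 (0.65 to 1.52) against 2.33 in female cells, and at 1.68 (1.22 to 2.13) in male cells without F13a1. Male Ifi204, at 2.12 (1.10 to 3.21) against 1.91 in female cells, stood at 0.83 (-1.82 to 2.64) with 3 UMIs without F13a1-carrying cells, and male Ifi27l2a at 0.43 (-0.06 to 0.90) and -0.15 (-0.97 to 0.53).

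**Figure D4:**
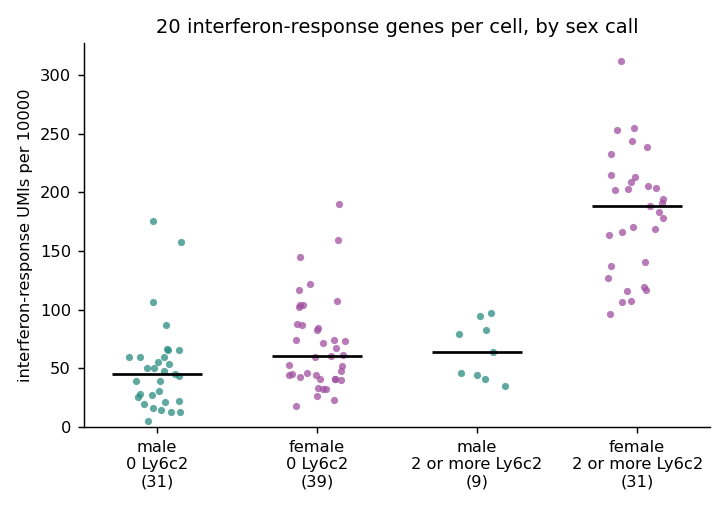
UMIs of the interferon response list per 10000 UMIs (vertical axis), 1 point per cell, in the remaining Cd209a cells at 14 dpi with 0 and with 2 or more Ly6c2 UMIs, by sex call, with medians as lines. Female cells with 2 or more Ly6c2 UMIs had a median of 187.9 and male cells 64.2.

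The class II difference had the same sign in both sexes. The class II median was -1.12 in female cells, with 6 of 11 genes 2-fold lower, and -1.59 in male cells, with 7 of 11. Monocyte gene medians were 0.98 and 0.92, but the male value rested on the 4 F13a1-carrying cells among the 9. Without F13a1-carrying cells the monocyte list stood at 0.87 in female and -0.84 in male cells, the latter with 5 cells against 29, and at 0.73 over all cells, while the interferon list stood at 1.35 and -1.78 and the class II list at -1.22 and -1.81 in female and male cells. H2-Aa stood at -1.42 and -1.98 and Plac8 at 2.75 and 1.31 in female and male cells. The differences between the sexes were not tested.

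Classical monocyte genes had a median of 0.96, with 8 of 16 measured genes 2-fold higher and none lower. Plac8, a small cysteine-rich protein of monocytes and plasmacytoid DCs, was counted at 0 to 56 UMIs per Ly6c2-negative cell with a median of 2.5, and at 1 to 173 with a median of 32.5 in cells with 2 or more, a log2 ratio of 2.52 (2.38 to 2.66). Cebpb, a transcription factor of monocyte maturation, stood at 1.84 (1.36 to 2.35) and Ms4a4c at 1.10 (0.88 to 1.31). The chemokine receptor Ccr2 was nearer, at 0.81 (0.63 to 0.98), and had a UMI in 46 of 46 against 75 of 94 cells. Among monocyte and macrophage receptors, Cd14 stood at 0.72 (-0.27 to 1.68), an interval that spans 0, and Fcgr1, the high-affinity IgG receptor, at 0.74 (0.30 to 1.17).

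A few cells carried some of these monocyte differences. Lyz2, the lysozyme of macrophages and monocytes, had a log2 ratio of 2.27 (2.13 to 2.41) in the sums but medians of 5.5 and 3 UMIs per cell, with highest values of 287 and 65. Of the 46 cells, 28 held no more than 10 Lyz2 UMIs and the top 5 held 67.4% of the 1483. The 12 cells that carried F13a1, a coagulation factor of monocytes and macrophages, held 1223 of these UMIs (82.5%) and 86 of 103 Fn1 UMIs. Without F13a1-carrying cells on either side Lyz2 stood at 0.59 (0.36 to 0.81). This split was chosen after the values were seen.

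These 12 cells had a median of 58 Lyz2 UMIs and the other 34 a median of 3.5. By sex call 4 of the 12 were male and 4 female, and 5 of the 34 male and 27 female, and the part of this in the ratios that follow was not tested. Set against the 34, the 12 stood at 3.67 for Lyz2, 3.74 for Fn1, 0.80 for Ccr2, -2.80 for Cd7, a surface protein of lymphoid and DC precursors, -2.08 for Ly6a, -1.86 for Bst2, -1.76 for Runx2 and -1.16 for Tcf4. In the sums class II was close, with H2-Aa at -0.04 (-0.18 to 0.11) and Cd74 at -0.03, but per cell the 12 had lower medians. The 4 class II genes took a median of 1.01% of their UMIs against 2.0% in the 34, with overlapping ranges (0 to 5.89% and 0 to 6.54%), and H2-Aa had medians of 17.5 and 35.5 UMIs and was found in 8 of 12 and 30 of 34 cells. Of 6 measured conventional DC core genes outside the selection 3 were 2-fold lower in the 12 cells and none higher (median -1.02), where 7.95% of all 3358 genes were lower and 4.41% higher. Without Ly6c2, F13a1 was found in 5.3% of cells.

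Many genes of conventional DCs had ratios near 0. The conventional DC core list without the 3 genes of the selection had a median of -0.02 over 11 genes, with 2 of them 2-fold higher and 1 lower. Zbtb46 stood at 0.02 (-0.90 to 0.86) and Flt3 at 0.26 (-0.19 to 0.69), with a UMI in 40 of 46 against 61 of 94 cells, and both are genes of the selection. Bcl11a, a transcription factor of DC precursors and plasmacytoid DCs, stood at 1.15 (0.81 to 1.5). The DC2 genes outside the selection had a median of -0.10, with 2 of 12 higher and 3 lower. Among them Sirpa, the inhibitory receptor that marks DC2, stood at -0.33 (-0.87 to 0.17), Cd7 at 2.13 (1.82 to 2.45), Tnip3 at -2.70 (-4.03 to -1.75) and the adhesion molecule Epcam at -4.13 (-10.03 to -2.16), the last with 1 UMI against 52.

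Transcription factors split by gene, with 6 of 20 at least 2-fold higher and 1 lower (median 0.17). Irf4 and Klf4, which act in DC2 development, stood at 0.14 (-0.77 to 0.97) and 0.40 (0.05 to 0.73), and Spi1, the myeloid factor PU.1, at 0.21 (0.01 to 0.41). Higher in the cells with 2 or more Ly6c2 UMIs were Irf8 at 1.78 (1.24 to 2.36), Zeb2 at 1.43 (1.13 to 1.73), Tcf4 at 1.24 (0.87 to 1.63) and Runx2 at 2.07 (1.38 to 2.81), all of which act in plasmacytoid DCs as well as in other cells. Id2, an inhibitor of E proteins such as Tcf4, stood at -2.66 (-3.26 to -2.15), with a UMI in 16 of 46 against 58 of 94 cells. Of 7 plasmacytoid genes measured here 4 were 2-fold higher and none lower (median 1.24), after the 16 cells with most such genes had been left out.

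Several surface and secreted molecules were lower in the cells with 2 or more Ly6c2 UMIs. Mgl2 was found in 1 of the 46 cells (3 UMIs) and in 36.2% of the Ly6c2-negative cells (300 UMIs), and its relative Clec10a stood at -1.72 (-2.11 to -1.37), both genes of the selection. The receptor tyrosine kinase Kit had 2 against 70 UMIs (-3.82, -7.20 to -2.22) and the sialic acid receptor Siglece 4 against 93 (-3.38, -5.44 to -2.13). Of 12 cytokine and chemokine genes 3 were 2-fold higher and 5 lower, with Cxcl16 at -1.86 (-2.57 to -1.27) and Il1b at -1.06 (-1.46 to -0.69). Of 14 chemokine receptors and entry molecules 3 were higher and 3 lower, with Ccr1 at -1.05 (-1.59 to -0.56) and the integrin Itgam at -1.03 (-1.53 to -0.58). The costimulatory ligand Cd86 stood at -0.21 (-0.89 to 0.42).

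Other lists had medians nearer 0 in this comparison or few measured genes. Of 14 proliferation genes none was 2-fold higher or lower (median 0.38), and of 18 immediate early genes 1 was higher and 1 lower (median 0.00). The 7 neutrophil genes had none in either direction (median -0.01). Of 7 microglia genes 3 were lower in cells with 2 or more Ly6c2 UMIs (median -0.70). No T cell, mast cell or basophil list gene reached 20 UMIs. Among the highest genes with at least 100 UMIs, Slfn1 (2.77), Tppp3 (2.49), Lgals1 (2.28) and Ly6a (2.24) belonged to no list, and among the lowest were AA467197 (-3.05), F11r (-2.96), Cd72 (-2.19), Spint1 (-2.09) and Cd33 (-1.98).

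**Figure D5:**
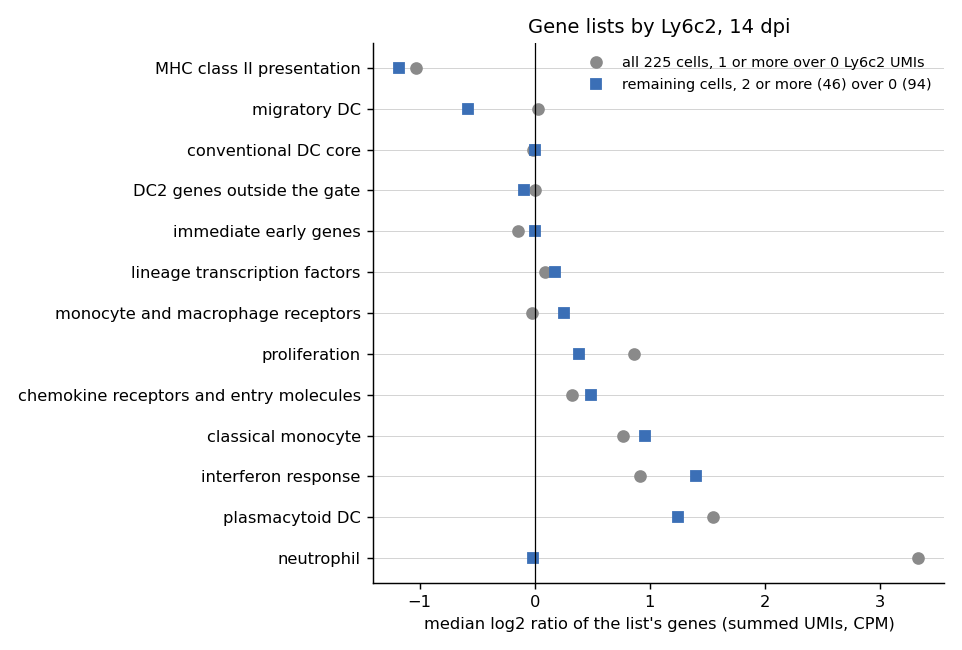
Median log2 ratio of each gene list (horizontal axis) in Ly6c2-positive over Ly6c2-negative Cd209a cells at 14 dpi, for all cells (circles) and for the remaining cells with 2 or more over 0 Ly6c2 UMIs (squares). MHC class II stood at -1.04 and -1.18 and interferon response at 0.92 and 1.40, while the neutrophil list stood at 3.34 and -0.01.

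The Cd209a cells were next set against classical monocytes of the same library, here 477 cells with at least 2 Ly6c2 UMIs and a Ccr2 UMI and without Cd209a, Flt3 or other lineage genes. Of genes with at least 20 UMIs 9.51% were 2-fold higher and 7.67% lower in the Cd209a cells. Class II genes had a median of 2.09, with 9 of 11 higher, conventional DC core genes outside either selection 1.24, with 8 of 12 higher, and classical monocyte genes outside either selection -2.28, with 14 of 18 lower. The DC2 genes outside the selection had a median of -0.13, with 6 of 13 higher and 2 lower. In the 158 remaining cells against unmixed monocytes this median turned to 1.34, with 6 of 12 higher and 2 lower. The shares of all genes given above belong to the comparison of all Cd209a cells and not to this one. Cd209d, a relative of Cd209a, had 217 UMIs against 0, at least 105-fold higher when 3 counts are taken as the limit over the monocytes, and Epcam 102 against 0, at least 49.4-fold. Among the next highest were Cd7 (6.09), the lectin-like receptor Klrd1 (5.58), Ctnnd2 (5.49), Trp53i11 (5.46), H2-Oa (5.31), AC140186.1 (5.24) and H2-Ob (4.95). The lowest were Vcan (-5.61), F10 (-5.54), Thbs1 (-5.38), Plcb1 (-5.22), Treml4 (-4.69), Ace (-4.6), Ms4a4a (-4.40), Tarm1 (-4.28), Ms4a8a (-4.16) and Clec4e (-4.12), of which Treml4 and Ace are known from non-classical monocytes.

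In summed counts the 46 remaining cells with 2 or more Ly6c2 UMIs were also apart from unmixed monocytes. Class II genes had a median of 1.67 (8 of 10 higher) and classical monocyte genes outside the selection -2.35 (11 of 18 lower, none higher), where 8.42% of all genes were higher and 10.5% lower. Lyz2 stood at -2.65 and Cd14 at -2.48, against 1.69 for H2-Aa and 7.51 for Cd7. Ccr2 stood at -0.21, but the monocytes were taken by a Ccr2 UMI, so this value is no measure of likeness. The interferon list stood at -0.15, pooled over unequal shares of male cells (22.5% of called cells among the 46 and 46.5% among unmixed monocytes). By sex call, interferon list UMIs per 10000 had medians of 187.9 in the 46 and 244.7 in unmixed monocytes for female cells. For male cells the medians were 64.2 and 72.0. Single cells among the 46 reached the monocyte level of Lyz2: the 12 with F13a1 ran from 3.99 to 369 Lyz2 UMIs per 10000 with a median of 51.1, the 34 without F13a1 from 0 to 48.7 with a median of 3.43, and unmixed monocytes had a median of 195.7. Their Ly6c2 ran from 2 to 78 UMIs per cell with a median of 10.5, and unmixed monocytes had a median of 23, Ly6c2 being a gene of both selections.

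Against 48 conventional DC1, taken by Xcr1 with further DC1 genes and without Cd209a, the Cd209a cells as a whole differed little in summed class II. The class II list had a median of 0.08 with none of 11 genes 2-fold apart, where 8.48% of all genes were higher and 3.62% lower. In the 158 remaining cells against unmixed DC1 the median was 0.09, with 2 of 11 genes higher and none lower. Per cell, the 4 class II genes took a median of 6.32% of UMIs in remaining cells without Ly6c2 and 1.80% in those with 2 or more Ly6c2 UMIs. The median was 0.13% in plasmacytoid-gene cells and 4.43% in unmixed DC1. Of the DC1 list, 4 measured genes had chosen the DC1 and were left out, and the other 10 were all 2-fold lower (median -3.02), while 9 of 12 DC2 genes outside the selection were higher (median 2.42). Of 18 classical monocyte genes 8 were higher and 1 lower (median 0.81), and in the 158 remaining cells against unmixed DC1 it was 11 of 16 and none (median 2.24). The highest genes were Cd209d (217 UMIs against 0, at least 22.2-fold), the mannose receptor Mrc1 (131 against 0, at least 13.4-fold), AI839979 (5.95), S100a4 (5.62), AC140186.1 (5.32), Fcor (5.24), Cd7 (5.14), Clec2i (4.86), Camp (4.54) and Chil3 (4.43). Without mixed and plasmacytoid-gene cells Camp stood at 0.08 and Chil3 at 0.71.

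The genes lowest against DC1 were Snx22 (-6.25), Cxcl9 (-4.00), the double-stranded RNA sensor Tlr3 (-3.83), Naaa (-3.05), Ppt1 (-2.98), P2ry14 (-2.80), Rab7b (-2.74), Ifi205 (-2.70), Fcrla (-2.62) and Cd24a (-2.55). Cxcl9 rested on 10.4% of the DC1. Between the 158 remaining cells and 31 unmixed DC1, Irf8, the factor DC1 need, stood at -4.38, Sirpa at 3.82 and Klf4 at 2.04, and Irf4 had 56 UMIs against 0, at least 4.92-fold higher. The DC2 list there had a median of 3.52, with 10 of 12 genes higher and 1 lower, where 13.8% of all genes were higher and 5.43% lower.

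At other times the Ly6c2 contrast rested on few cells. At 3 dpi the remaining cells numbered 8 with 2 or more Ly6c2 UMIs and 39 with none, and class II took a median of 0.10% against 4.36% of UMIs. The class II list had a median of -3.21, with 7 of 11 genes 2-fold lower, where 10.3% of all genes were higher and 12.4% lower. Over all cells of the rule at 3 dpi (22 with Ly6c2, 41 without) the ratios were nearer 0, with H2-Aa at -0.67 (-0.77 to -0.57), Cd74 at -0.64 (-0.70 to -0.58) and the class II list at -0.40, and class II took a median of 0.675% against 4.34% of UMIs. In the 8 against 39 cells the interferon list stood at -0.09 and the monocyte list at -0.43. In the standard sham the remaining cells numbered 13 and 9, with class II at 0.11% against 5.46% of UMIs and the class II list at -3.59, with 7 of 9 lower, where 14.8% of all genes were higher and 3.78% lower. The monocyte list stood at 1.19 there, with 12 of 17 genes higher and none lower. Proliferation genes had 10 of 10 higher in that library (median 4.66), with Mki67 at 39 UMIs against 0 and Top2a at 58 against 0. Among the remaining cells at 14 dpi none of 14 was 2-fold higher. Over all cells of the rule the proliferation list had a median of 0.87 at 14 dpi, 2.60 at 3 dpi over 6 measured genes and 4.93 in the standard sham. Mki67 stood at 1.42 (0.95 to 1.93) at 14 dpi, at 2.33 (1.29 to 3.58) at 3 dpi, where the 8 and 39 remaining cells held 0 and 10 UMIs of it, and at 87 UMIs against 0 in the standard sham. The ActD sham held 2 remaining cells, both with 2 or more Ly6c2 UMIs. The differences between libraries were not tested.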

How the data were processed

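The deposited files held whole-number UMI counts per gene and barcode for 4 libraries, which the authors made with Cell Ranger against mm10, without normalization. Per the file headers the software version differed, 3.1.0 at 14 dpi and in the sham with ActD, and 3.0.1 in the other libraries. The members and the gene lists were chosen with earlier results of these data known. Cells with under 600 genes or over 10% mitochondrial UMIs were left out. Counts were summed over cells and divided by the group's UMIs. Log2 ratios had 0.5 UMIs added and carry exact conditional 95% intervals for counting error only. Genes needed 50 UMIs in the cells compared, or 20 for lists, and 2-fold was used as the limit of size, with no test. For thinning, each cell was sampled to 2000 UMIs and shallower cells were left out. A limit on a count of 0 was 3 counts. Comparisons with monocytes and DC1 used cells taken by marker UMIs, and "unmixed" cells had none of the mixed-cell limits, which were 20 UMIs of 10 microglia genes, 10 of Camp, Ngp and Ltf, or 50 of S100a8 and S100a9. A cell with at least 3 of 6 plasmacytoid genes was a plasmacytoid-gene cell. Genes that chose either group were left out of the DC1, conventional DC core and monocyte lists where a sentence says so. Named genes were list members and the 10 highest and 10 lowest ratios among genes with at least 100 UMIs and a UMI in 10% of cells of the higher group, without selection, Ly6c1, sex-linked, mitochondrial, haemoglobin, ribosomal and immunoglobulin genes, and a few genes that this rule names are not reported here. The comparison of cells with 2 or more against 0 Ly6c2 UMIs was named by the same rule, added after seeing the data. Doublets were kept. Removal of the cells with the highest Scrublet scores (scanpy 1.11.5), at an assumed 0.8% per 1000 cells, served as an alternative. Positions came from GENCODE M21 and promoters from RefSeq. Python 3.11.15, numpy 2.4.6, scipy 1.17.1 and pandas 2.3.3 were used. The code was tested on simulated data. Other alternatives are given in the closing section.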

Additional observations from a re-analysis of the deposited data

Results flagged for a closer look

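Among 37 list genes with enough UMIs in both libraries, 3 had log2 ratios of opposite sign at 14 and 3 dpi with counting intervals that did not reach 0, for the remaining cells with 2 or more against 0 Ly6c2 UMIs. All 3 are monocyte or macrophage genes. Fn1 stood at 3.08 (2.45 to 3.81) at 14 dpi and -1.21 (-2.24 to -0.42) at 3 dpi. Lyz2 stood at 2.27 (2.13 to 2.41) and -0.78 (-1.0 to -0.57). Fcgr1 stood at 0.74 (0.30 to 1.17) and -2.14 (-5.52 to -0.54). The difference between the libraries was not tested, and the ratios at 3 dpi rest on 8 cells with Ly6c2. Over all cells of the rule at 3 dpi Fn1 stood at -0.11 (-0.46 to 0.22) and Lyz2 at -1.06 (-1.17 to -0.95). At 14 dpi the 12 cells with F13a1 held 82.5% of the Lyz2 UMIs and 86 of the 103 Fn1 UMIs of the 46 cells, and Lyz2 stood at 0.59 without F13a1-carrying cells.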

How the results depend on the processing

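Over the 14 settings run on the contrast of all 225 cells, the sign held for the MHC class II and monocyte lists. They ran from -1.83 to -0.85 (-1.04 as reported) and from 0.51 to 1.05. The interferon list ran from 0.0352 to 1.40 (0.92 as reported). Its lowest value, in male cells, was below the median of all genes there (0.10). In these male cells 2 of 17 interferon genes were 2-fold higher, where 5.88% of all genes were. The sign was not kept throughout in male cells alone once the mixed and plasmacytoid-gene cells were left out. There, 2 or more against 0 Ly6c2 UMIs gave -0.25 for the interferon list. Without F13a1-carrying cells it was -1.78 for that list and -0.84 for the monocyte list. MHC class II stood at -1.24 with 2 or more against 0 Ly6c2 UMIs, -1.45 in male and -0.86 in female cells, -1.83 in cells with few microglia and S100 UMIs, and, in settings chosen after seeing the data, -0.85 without mixed and plasmacytoid-gene cells and -1.18 when 2 or more Ly6c2 UMIs were also required. The interferon list stood at 0.0352 in male cells and at 1.26 and 1.40 in the last 2 settings. The neutrophil list, 3.34 as reported, turned to -0.0676 in female cells and to -0.0076 and -0.013 in the last 2 settings, which by construction leave out the cells with granule genes in bulk, and the proliferation list, 0.87 as reported, to -0.0154 in female cells and to 0.11 without mixed and plasmacytoid-gene cells. After Scrublet removal the neutrophil list stood at 0.47. The plasmacytoid list, 1.55 as reported, stood at 2.45 by the mean over cells, 2.34 after thinning, 2.77 after Scrublet removal, 2.79 in cells with few microglia and S100 UMIs and 3.00 without mixed cells. Genes at least 2-fold higher numbered 177 of 6037 (2.93%) as reported and 370 of 8468 (4.37%) at a minimum of 20 UMIs. They numbered 63 after thinning to 2000 UMIs and 48 at a minimum of 200 UMIs. In male cells they numbered 66, and in cells with few microglia and S100 UMIs 43. Genes at least 2-fold lower numbered 64 (1.06%) as reported and 155 (1.83%) at a minimum of 20 UMIs. They numbered 24 after thinning, 21 at a minimum of 200 UMIs and 10 in cells with few microglia and S100 UMIs. The number of genes compared also changed between these settings, so the counts alone do not measure the size of the difference.

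The share of Cd209a cells at 3 dpi was 1.10% with 1 Cd209a UMI and 0.420% with 3, and 2.40% at 14 dpi with 1. The share with Ly6c2 at 14 dpi was 35.1% with 2 UMIs, 27.1% after thinning to 2000 and 40.5% without mixed and plasmacytoid-gene cells. At 3 dpi it was 17.5% with 2 UMIs and 19.0% and 20.3% after thinning to 2000 and 5000, and in the ActD sham 100% (2 cells) without those cells. Against monocytes, MHC class II stood at 2.31 by the mean over cells and 2.44 without mixed cells, and the monocyte list at -2.95 without mixed cells. Against DC1, 273 genes were 2-fold lower by the mean over cells, a count whose share of all genes is not given here. The DC1 list stood at -3.73 by that mean and -4.60 without mixed cells. With 2 UMIs needed for a sex call, 28.8% of called Cd209a cells and 31.5% of Ly6c2-negative ones were male. The cause of these differences was not tested. No paired analysis was possible because each condition had 1 library. Ratios of genes with few UMIs have wide intervals, and none covers the spread between animals.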

Other observations

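The chemokine Cxcl9 rested on few cells: 4 of the 225 Cd209a cells held its 55 UMIs.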
